A study of Mus musculus with 8 samples.

Results

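The genes described here encode molecular chaperones and heat shock proteins. They were taken by symbol alone, as HSP90, HSP70 and HSP110, small heat shock protein, HSP60 and HSP10, chaperonin CCT, J-protein (DNAJA, DNAJB and DNAJC) and BAG genes, and number 79 of the 22810 genes in the deposited counts. RNA was sequenced by SMART-Seq2 from single E3.5 blastocysts of reciprocal natural matings between C57BL/6 (B6) and *Mus musculus castaneus* (*cast*) mice, lysed without in vitro culture. The forward cross (B6 mother, *cast* father) was measured in 3 embryos and the reverse cross (*cast* mother, B6 father) in 5, numbered 1, 2, 3, 5 and 7. Reads covering single nucleotide polymorphisms (SNPs) were counted per gene and strain, so that B6 reads are maternal in the forward cross and paternal in the reverse cross. No embryo was treated and none was an inbred control. The embryos were not matched for sex, and litters were not given in the sources used here. Cross direction, litter and embryo sex cannot be told apart. All 79 genes are autosomal.

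Chaperones bind unfolded or partly folded proteins and keep them from aggregating while they fold, refold or are handed on. HSP70 proteins do so in a cycle of ATP binding and hydrolysis, in which J-proteins deliver the client and start hydrolysis, and HSP110 and BAG proteins release the nucleotide. HSP90 acts later on kinases and steroid receptors, HSP60 with its lid HSP10 folds proteins in mitochondria, and the ring-shaped CCT complex folds actin and tubulin. Small heat shock proteins hold unfolded clients without ATP. In the mouse embryo, HSP70 is among the early products of zygotic genome activation, made without heat shock.

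Heat shock factors bind inverted repeats of GAA, and windows from 250 bases before to 50 bases after the start were read for 64 of the 79 genes from the RefSeq promoter table (GRCm38.p6, the build of mm10). The letters GAANNTTC or TTCNNGAA, which overlap in longer repeats and were searched on both strands, stood in 20 of 82 windows of 18 of these genes (24.4%) and in 15.1% of all 32851 windows. Longer arrays, GAANNTTCNNGAA or TTCNNGAANNTTC, stood in 6 of 82 windows (7.32%) of 4 genes, and in 0.603% of all windows. Windows of 1 gene with different starts can overlap, so an array can be counted more than once, as that of *Hsph1* was. By gene, longer arrays stood in 4 of 64, against 179 of 27025 over all promoters. The 4 genes encode both parts of the mitochondrial chaperonin, an HSP110 and a J-protein. They are shown 5′ to 3′ on the strand of the gene with the array in capitals, since they are the clearest sequence feature that the choice by symbol did not use. A match of letters does not show that a factor was bound.
Hspe1 (chr1:55088053-55088082, plus strand): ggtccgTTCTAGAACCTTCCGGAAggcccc
Hspd1 (chr1:55088053-55088082, minus strand): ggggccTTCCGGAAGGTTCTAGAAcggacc
Dnajb6 (chr5:29735844-29735873, plus strand): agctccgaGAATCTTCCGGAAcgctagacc
Hsph1 (chr5:149636279-149636308, minus strand): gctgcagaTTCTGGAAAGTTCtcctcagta

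*Hspe1* and *Hspd1* lie head to head and their array is the same stretch of DNA read from either strand. It begins 89 bases before the *Hspe1* start and 144 bases before the *Hspd1* start. *Hspb1*, the classical small heat shock protein HSP27, had no longer array and a pair of short matches, at chr5:135887791-135887820 and chr5:135887811-135887840 on the plus strand, again with the match in capitals.
Hspb1, upstream match: cttcaacaagaGAAGTTTCcagatgggggc
Hspb1, downstream match: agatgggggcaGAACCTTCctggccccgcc

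Across the 8 embryos, 143015 reads fell on the 79 genes, or 1.29% to 1.61% of all SNP-spanning reads in each of 7 embryos and 0.637% in reverse embryo 1. *Hsp90ab1* (chr17:45567775-45573271), the constitutive cytosolic HSP90, took 36.5% of these reads, and the 5 most-read genes took 59.2%. Of the 79 genes, 70 had 10 or more reads in some allele library, of 16, and were tested. The other 9 (*Cct7*, *Cct8l1*, *Dnaja4*, *Dnajb3*, *Dnajb7*, *Dnajb9*, *Hspa2*, *Hspa12b* and *Hspb9*) had between 1 and 27 reads over all embryos. *Hspa1a* and *Hspa1b*, the strongly inducible HSP70 genes, were not analysed here. The tested chaperone genes had a median of 496.5 reads over all embryos, against 309 for all 12565 genes tested. Because reads count only where they cover a SNP, levels of different genes depend on their SNPs and length and were not compared.

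The embryos held between 1060063 and 1632695 SNP-spanning reads, 57.4% to 58.3% of them from B6. Reverse embryo 1 stood apart from the others, with Spearman correlations of 0.572 to 0.698 to the other 7 embryos, against 0.840 to 0.925 among those 7. All 13 blastocyst markers examined were detected in every embryo. They summed to 3867 to 5099 reads per 1000000 (RPM) in 7 embryos and 1291 in reverse embryo 1. *Krt8* and *Krt18*, with 18849 and 14877 reads over all embryos, made up most of these sums. Both were lowest in reverse embryo 1, as were *Cdx2*, *Gata3* and *Sox17*. *Gata6* was highest there, and the other markers lay within the range of the other embryos. Leukocyte markers were all detected in forward embryo 1 (11 of 11) and summed to 867 RPM there, against 45.1 and 58.7 in the other forward embryos and 4.50 to 7.31 in the reverse embryos. Oocyte markers (at most 4 of 8 detected) summed to 7.83 to 20.2, cumulus markers to 2.25 to 11.3 and red blood cell markers to 0 to 0.943 RPM. Uterine and oviduct epithelium markers summed to 84.5 to 159.9 RPM. Most of the latter reads were of *Wfdc2* (427 maternal, 469 paternal) and *Muc1* (126 maternal, 105 paternal), and thus came from both parental alleles. Each comparison was therefore also made without reverse embryo 1.

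**Figure D1:**
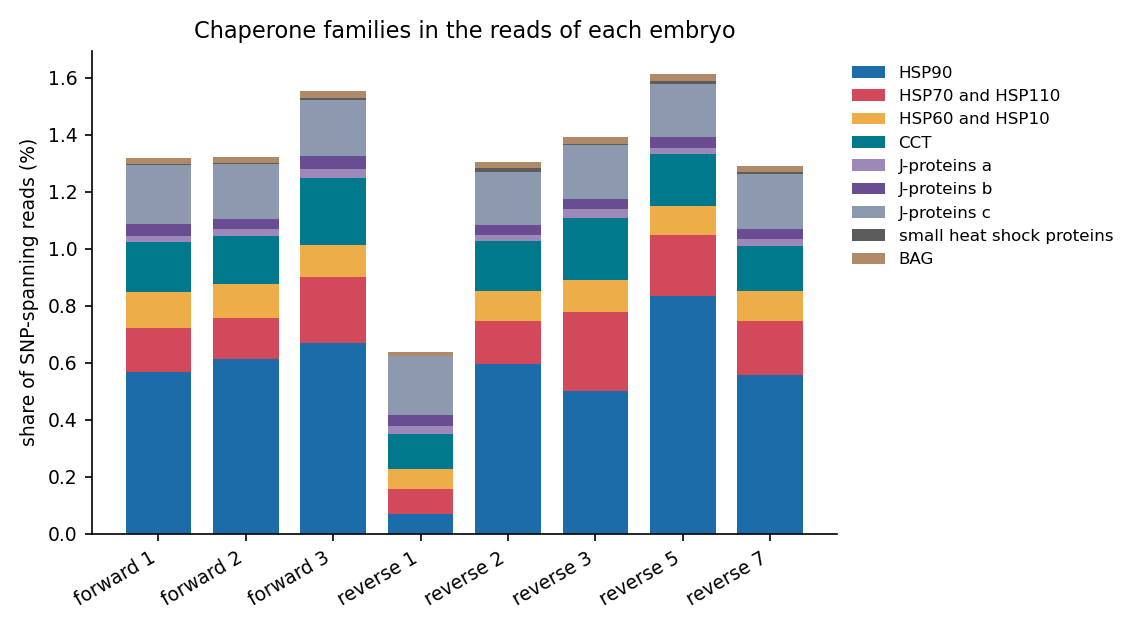
Share of all SNP-spanning reads (percent, linear axis from 0) taken by each chaperone family in each of the 3 forward and 5 reverse embryos, as stacked bars. Reverse embryo 1 reaches 0.637%, below the 1.29% to 1.61% of the other 7 embryos, and its HSP90 segment is 0.0682% against 0.500% to 0.832%.

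Reverse embryo 1 had far fewer HSP90 reads than the rest. *Hsp90ab1* had 4808, 5409.9 and 6164 TMM-scaled RPM in forward embryos 1, 2 and 3. Reverse embryos 1, 2, 3, 5 and 7 had 273, 5383, 5664, 7434 and 5054. Its level in reverse embryo 1 was 19.9-fold lower than the median of the other 7, which lay close together with a coefficient of variation (CV) of 15.4%. *Hsp90aa1*, the stress-inducible cytosolic form, had 686, 694 and 711 RPM in the forward embryos and 214, 452, 471, 724 and 541 in the reverse embryos, in the same order of embryos. It was also lowest in reverse embryo 1. *Hsp90b1*, the form in the endoplasmic reticulum, had 139, 183 and 135 (forward) and 129.7, 157, 142, 240.2 and 108 (reverse), and in this gene reverse embryo 1 lay within the range of the others.

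Among HSP70 genes, *Hspa8* (chr9:40800984-40810087), the constitutive cytosolic HSP70 that refolds clients and uncoats clathrin vesicles, varied widely. It had 521, 412 and 1124 RPM in the forward embryos and 43.2, 319, 2237, 865 and 825 in the reverse embryos. Reverse embryo 1 was 19.1-fold below the median of the others and reverse embryo 3 the highest, and without reverse embryo 1 the CV was 72.6%. *Hspa14*, a ribosome-bound HSP70 that meets nascent chains, was more even, with 109, 106 and 116 in the forward and 120.1, 110.4, 113, 103 and 104 in the reverse embryos. Its CV over the same 7 embryos was 4.33%, and reverse embryo 1 was the highest. Counting error alone gives a CV of 8.40% at the read number of *Hspa14* and of 2.98% at that of *Hspa8*. The value of *Hspa14* thus does not show evenness beyond counting error. *Hsph1*, an HSP110 that releases ADP from HSP70, had 464, 435 and 584 (forward) and 307, 590.5, 534, 608 and 558 (reverse), with reverse embryo 1 lowest.

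The mitochondrial chaperonin was read mainly through its lid. *Hspe1* (chr1:55088132-55091307) had 1245, 1206 and 1158 RPM in the forward embryos and 621, 1078, 1392, 1022 and 1067 in the reverse embryos, a CV of 10.9% without reverse embryo 1. *Hspd1* (chr1:55077835-55088243), which encodes the HSP60 ring, had 33.5, 15.2 and 22.1 (forward) and 7.20, 13.9, 35.2, 15.2 and 22.3 (reverse). Both were lowest in reverse embryo 1. The genes overlap at their starts on opposite strands, and whether counting used strand is not stated, so a read in the overlap could belong to either.

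CCT genes, whose products assemble into a ring, took 0.159% to 0.234% of reads in 7 embryos and 0.124% in reverse embryo 1. *Tcp1*, the alpha subunit, had 428, 412 and 409.6 RPM in the forward and 211, 300.3, 329, 328 and 308 in the reverse embryos. *Cct6a*, the zeta subunit and the most-read of the family, had 603, 639 and 919 (forward) and 387, 668, 858, 624 and 529 (reverse). *Cct5*, the epsilon subunit, had 303, 274 and 479 (forward) and 84.6, 293, 698, 399 and 315 (reverse). Reverse embryo 1 was lowest in all 3, while reverse embryo 3 was highest in *Cct5* and among the highest in *Cct6a*. In *Cct4*, the delta subunit, with 196, 249.7 and 328 (forward) and 244, 264, 416, 232 and 256 (reverse), reverse embryo 1 lay inside the range of the others. Of the 8 CCT genes tested, 5 were lowest in reverse embryo 1, where 27.1% of all genes were lowest.

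J-proteins moved less as a family. DNAJC genes took 0.205% of reads in reverse embryo 1 and 0.184% to 0.207% in the other 7 embryos, and DNAJA and DNAJB genes also lay within the range of the others. *Dnajb1*, the main cytosolic HSP40 partner of HSP70 and itself heat-inducible, had 137, 155 and 213 RPM in the forward and 25.8, 94.6, 157, 96.2 and 92.99 in the reverse embryos. It was lowest in reverse embryo 1, as *Hspa8* was. *Dnajb6*, which holds back aggregation of glutamine-rich proteins, had 113, 89.2 and 74.6 (forward) and 167, 70.0, 55.3, 86.4 and 63.9 (reverse), and *Dnajc1*, a membrane J-protein of the endoplasmic reticulum, had 104, 73.1 and 74.6 (forward) and 153, 105, 61.1, 87.9 and 63.0 (reverse). Both were highest in reverse embryo 1.

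Small heat shock protein and BAG genes had few reads. *Hspb1* had 7.93, 3.57 and 9.01 RPM in the forward and 0.6003, 75.7, 20.1, 12.1 and 29.1 in the reverse embryos. Without reverse embryo 1, its CV was 111%. Reverse embryo 2 was the highest and reverse embryo 1 the lowest. BAG genes took 0.0116% of reads in reverse embryo 1 and 0.0207% to 0.0261% elsewhere. In reverse embryo 1, 5 of 6 BAG genes were lowest, against 27.1% of all genes. *Bag3*, a stress-inducible BAG protein of selective autophagy, had 56.1, 53.5 and 75.4 (forward) and 13.8, 24.0, 48.6, 62.9 and 57.2 (reverse). *Bag6*, which escorts tail-anchored membrane proteins, had 43.3, 49.1 and 31.1 (forward) and 9.004, 30.3, 23.4, 35.6 and 28.1 (reverse).

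**Figure D2:**
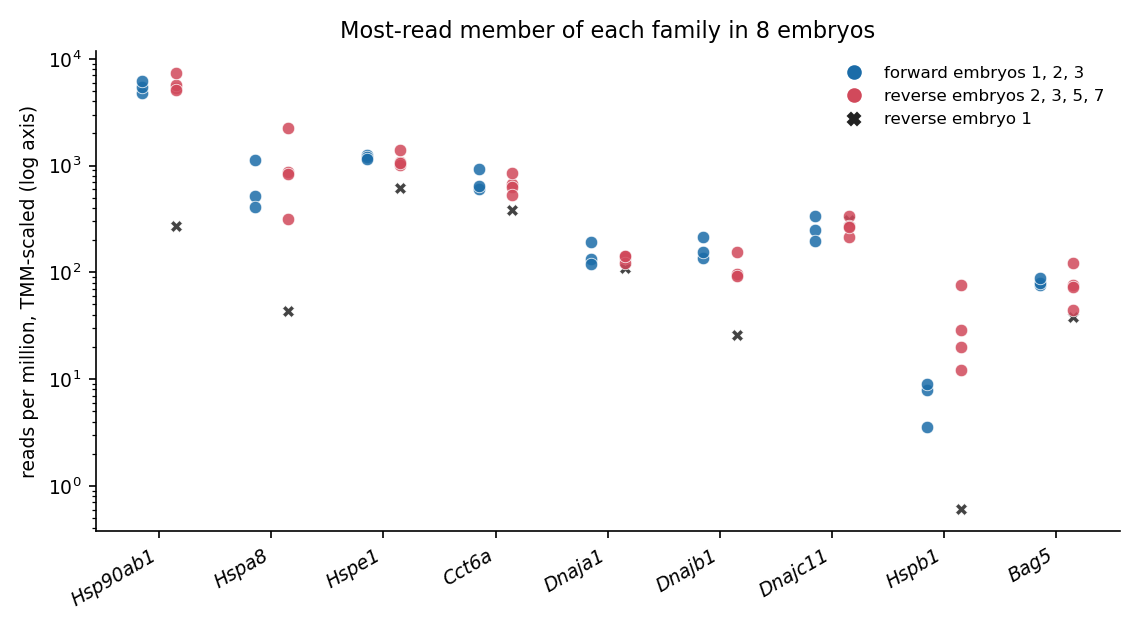
TMM-scaled RPM (log axis) of the most-read gene of each chaperone family in every embryo, with forward embryos in blue, reverse embryos in red and reverse embryo 1 as a black cross. *Hsp90ab1* and *Hspa8* lie 19.9-fold and 19.1-fold below the median of the other embryos in reverse embryo 1, and *Hspb1* spreads widely in the reverse cross.

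Over all 70 tested genes, reverse embryo 1 was the lowest of 8 in 32 (45.7%) and the highest in 14 (20%), against 27.1% and 28.5% of all 13077 genes tested on embryo totals. Its median log2 ratio to the other embryos was −0.68 for the chaperone genes and −0.01 for all genes. The ratio moved with the length of the gene. Among genes with a median of at least 20 RPM, the median log2 ratio of chaperone genes was −1.29 for 9 genes spanning under 10 kb, −0.56 for 35 genes of 10 to 50 kb and 1.03 for 7 longer genes. Medians over all such genes ran the same way, with −1.23 in 1331 genes, −0.33 in 3276 and 0.68 in 2144. Spearman's rho across genes was 0.659 for the 51 chaperone genes and 0.580 for all 6751, and these genes share 1 library and are not independent replicates. The part of gene length in the low chaperone levels of this embryo was not tested. Reverse embryo 3 was the highest of 8 in 25 of 70 chaperone genes (35.7%) and in 17.8% of all genes.

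**Figure D3:**
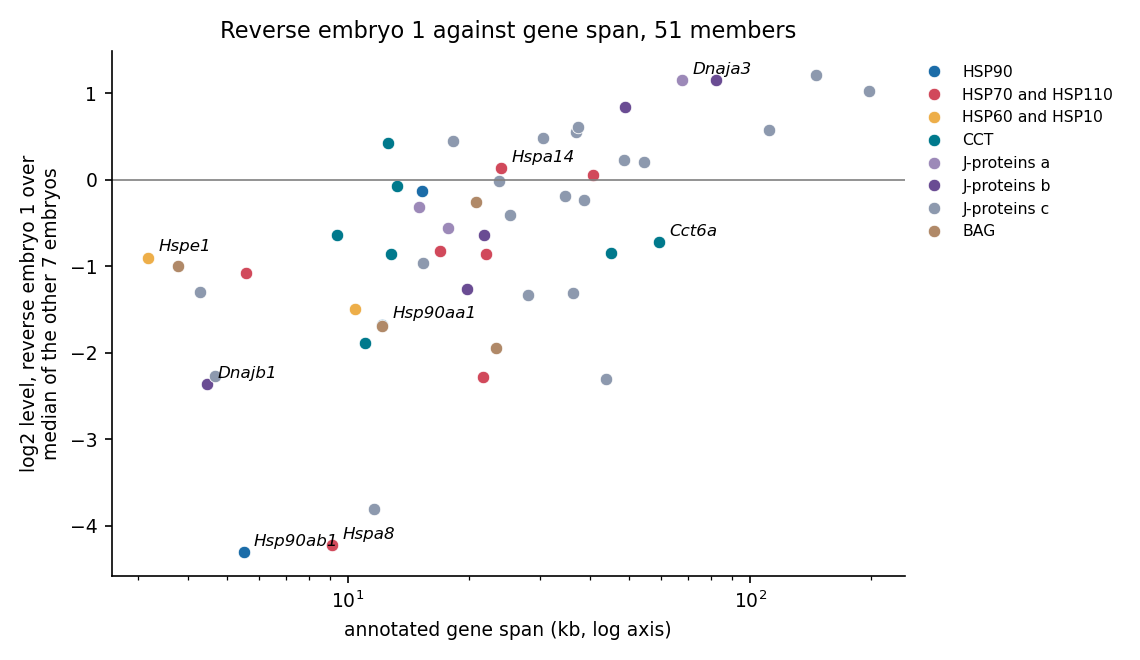
Log2 ratio of the level in reverse embryo 1 to the median of the other 7 embryos (vertical axis) against the genomic span of the gene in kb (log axis) for 51 chaperone genes with at least 20 RPM. Short genes lie low and long genes high, with Spearman's rho of 0.659.

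Over the 7 embryos other than reverse embryo 1, the median CV was 22.3% for 35 chaperone genes with at least 500 reads and 25.9% for 4722 such genes. *Cct5* reached 38.5% and *Cct6b* 49.6%.

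Whether chaperone levels differed between the crosses was tested on embryo totals. No chaperone gene did so by edgeR's quasi-likelihood test with Benjamini-Hochberg adjustment (0 of 70 at an adjusted p of at most 0.1, where 0.0688% of 13077 genes were called). At an unadjusted p of at most 0.05 it was 1 gene (1.43%, against 7.33% of all genes), and DESeq2 called 0, where it called 1.04% of all genes. Without reverse embryo 1 the count was again 0 (1.28% of all genes called), with 7 at an unadjusted p of at most 0.05 against 12.5% of all genes. Levels of the HSP90 genes had log2 fold changes, reverse over forward, between −0.54 and 0.03, and those of the CCT genes between −0.50 and 0.52.

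*Dnajb4*, a J-protein close to *Dnajb1*, was the gene with an unadjusted p under this threshold. It had 3.66, 0.892 and 2.46 RPM in the forward embryos and 15.6, 15.8, 3.35, 20.5 and 6.78 in the reverse embryos. Reverse embryo 3 lay within the forward range, so the crosses overlapped (log2 fold change 2.33 ± 0.82 (SE), adjusted p = 0.541). The 5 small heat shock protein genes tested had a median log2 fold change of 1.48, and did not all move alike. *Hspb1*, *Hspb6* and *Hspb8* were higher in several reverse embryos. *Hspb11* had means of 11.3 (forward) and 14.7 RPM (reverse), and *Hspb2* went the other way with 10.4 and 8.19. *Hspb6* had 8.54, 0 and 13.1 in the forward and 0, 29.7, 17.6, 22.0 and 33.9 in the reverse embryos, and *Hspb8*, a partner of *Bag3*, had 6.71, 7.13 and 0 (forward) and 0.6003, 24.6, 15.1, 39.4 and 4.84 (reverse). Both crosses overlapped in each gene, in *Hspb1* and *Hspb6* through reverse embryo 1 alone. For *Hspb1* the log2 fold change was 1.99 ± 0.93 (SE), with an adjusted p of 0.675, and without reverse embryo 1 it was 2.31 with an adjusted p of 0.103. In bulk embryos, fewer cells of a type and less RNA per cell cannot be told apart, and the leukocyte markers of forward embryo 1 differ between the same groups, with a part in these values that was not tested.

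Strain shares separated chaperone genes most clearly. Reads of both alleles had been aligned to mm10, and the part of alignment in the B6 shares was not tested. More than the library-wide share of reads came from the B6 allele in *Hsp90aa1*, *Dnaja1*, *Cct6b*, *Hspa8*, *Hspe1* and 6 others, whichever parent gave it, and more came from *cast* in *Dnajc22*. This made 12 of 70 genes called by edgeR's quasi-likelihood test (17.1%), against 15.5% of all 12565 genes, so chaperone genes were called about as often as others. Towards B6 it was 11 genes (15.7%, against 11.0% of all genes) and towards *cast* 1 (1.43%, against 4.45%). Since each allele library was scaled by itself, a log2 fold change of 0 between strains stands for the 57.4% to 58.3% of reads that B6 gave in each embryo. With 1 library size for both alleles of an embryo, the median over all genes moved from 0.06 to 0.39, and 15 chaperone genes were called (20.9% of all genes), 14 towards B6 and 1 towards *cast*. Among all genes called, the part towards B6 was then 87.4% in place of 71.3%. On the separate scaling, 12 of 69 were called without reverse embryo 1 (20.6% of all genes), and 7 of 70 without forward embryo 1 (9.9% of all genes) or without forward embryo 3 (10.4%).

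*Hsp90aa1* (chr12:110690605-110702728) had a B6 share of 91.0%, 88.0% and 90.1% in forward embryos 1, 2 and 3. Reverse embryos 1, 2, 3, 5 and 7 had 87.4%, 81.0%, 86.7%, 92.1% and 89.6%. The means were 89.7% ± 1.52 (SD, n = 3) and 87.4% ± 4.11 (SD, n = 5). All 8 embryos lay far above the library-wide share, and the crosses overlapped (log2 fold change 2.67 ± 0.29 (SE), adjusted p = 5.51e-07). *Hsp90ab1* was not called, with 52.3%, 54.0% and 54.3% (forward) and 58.6%, 55.1%, 58.9%, 58.0% and 59.4% (reverse). The forward embryos lay under and the reverse embryos near the library-wide share, without overlap (log2 fold change 0.01 ± 0.49 (SE), adjusted p = 0.996).

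The HSP70 gene called was *Hspa8*, with B6 shares of 87.6%, 82.0% and 86.2% in the forward and 72.2%, 80.4%, 88.0%, 86.4% and 88.8% in the reverse embryos. Means were 85.3% ± 2.88 (SD, n = 3) and 83.2% ± 6.96 (SD, n = 5), with reverse embryo 1 lowest (log2 fold change 2.35 ± 0.59 (SE), adjusted p = 0.00993). Its J-protein partner *Dnaja1* (chr4:40722150-40737149) lay at 91.8%, 90.3% and 85.0% (forward) and 80.4%, 80.2%, 86.5%, 82.6% and 86.3% (reverse). No embryo was under 80%, and the forward and reverse embryos overlapped (log2 fold change 2.30 ± 0.25 (SE), adjusted p = 6.35e-07). *Dnaja1* overlaps *Smu1* on the other strand, and the strand of reads is not known here.

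*Cct6b* (chr11:82719250-82764321), a second zeta subunit known from testis, had B6 shares of 90.7%, 91.8% and 93.7% (forward) and 87.5%, 68.5%, 97.5%, 93.5% and 90% (reverse), while its paralog *Cct6a* was not called (log2 fold change −0.37 ± 0.24 (SE), adjusted p = 0.404). Every embryo but reverse embryo 2 had a *Cct6b* share of at least 87%, and the log2 fold change of 3.02 ± 0.42 (SE) had an adjusted p of 1.91e-05. *Cct6b* overlaps predicted genes on both strands. *Hspe1* had the same B6 share in nearly every embryo. Its B6 share was 69.1%, 70.0% and 70.8% in the forward and 68.5%, 70.1%, 72.3%, 69.9% and 69.8% in the reverse embryos, with means of 70.0% ± 0.856 (SD, n = 3) and 70.1% ± 1.35 (SD, n = 5). All 8 embryos lay above the library-wide share (log2 fold change 0.90 ± 0.23 (SE), adjusted p = 0.00933).

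DNAJC genes made up 6 of the 12, 5 of them towards B6. *Dnajc22* (chr15:99093170-99104737) was called towards *cast*, with 1, 0 and 1 B6 reads against 34, 22 and 29 *cast* reads in the forward embryos. Reverse embryos 1, 2, 3, 5 and 7 held 1, 2, 16, 0 and 4 B6 reads against 0, 25, 56, 32 and 17. *Cast* reads prevailed in every embryo but reverse embryo 1, which held a single read (log2 fold change −3.73 ± 0.82 (SE), adjusted p = 0.00331). *Dnajc19*, a J-protein of the mitochondrial import motor, had B6 shares of 68.0%, 69.9% and 73.3% (forward) and 52.8%, 77.4%, 76.2%, 76.6% and 71.7% (reverse). Reverse embryo 1 was the lowest, and all others lay at 68% or more (log2 fold change 0.97 ± 0.23 (SE), adjusted p = 0.00629).

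*Dnajc21*, which acts in ribosome maturation, had B6 shares of 68.8%, 61.7% and 67.9% (forward) and 77.6%, 76.1%, 72.0%, 63.5% and 71.6% (reverse), and *Dnajc8*, found with splicing factors, had 67.1%, 60.4% and 77.2% (forward) and 83.2%, 67.5%, 75%, 67.4% and 69.5% (reverse). Both exceeded the library-wide share in all 8 embryos, by log2 fold changes of 0.85 ± 0.25 (SE, adjusted p = 0.0248) and 0.94 ± 0.30 (SE, adjusted p = 0.0407). Each call was lost without forward embryo 1 and without forward embryo 3, and that of *Dnajc8* also without a filter on low counts.

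The other 3 calls rested on few reads. *Hspb1* (chr5:135887919-135889563) had 10, 4 and 10 B6 reads against 3, 0 and 1 *cast* reads in the forward embryos, and 1, 112, 20, 14 and 30 against 0, 8, 4, 2 and 0 in the reverse embryos (log2 fold change 2.61 ± 0.91 (SE), adjusted p = 0.0667). *Dnajc18* had 14, 17 and 20 against 9, 0 and 2, and 68, 54, 10, 20 and 16 against 10, 9, 1, 3 and 16 (log2 fold change 1.73 ± 0.64 (SE), adjusted p = 0.0880). *Dnajc5b*, a relative of the vesicle protein encoded by *Dnajc5*, had 22 B6 reads and 1 *cast* read in all embryos together (log2 fold change 3.38 ± 1.19 (SE), adjusted p = 0.0714). B6 reads prevailed in every embryo for *Hspb1* and in all but reverse embryo 7 for *Dnajc18*. All 3 calls were lost when forward embryo 1, 2 or 3 was left out. Leaving out reverse embryo 5 or 7 also ended the *Hspb1* call, reverse embryo 2, 3 or 5 the *Dnajc18* call, and reverse embryo 2 or 7 the *Dnajc5b* call. *Dnajc5b* reached 10 reads in an allele library only in reverse embryo 3, and was not tested without that embryo.

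A term for each embryo (replicate block), which pairs both alleles of an embryo, called 16 of 70 genes (25.5% of all genes), and 19 of 69 when reverse embryo 1 was also left out (29.0%). Among the added genes were *Cct6a* with a log2 fold change of −0.34 (adjusted p = 0.0162) and *Dnajc5* with −0.54 (adjusted p = 0.0334), both towards *cast*. *Cct4* and *Dnajc14* were also called (adjusted p = 0.0663 and 0.0286). *Dnajc5b* lost its call there (adjusted p = 0.219) and with DESeq2 (0.187). *Hsp90aa1*, *Dnaja1*, *Cct6b*, *Dnajc19*, *Hspe1* and *Hspa8* were called under every alternative run. *Dnajc22* was called under all alternatives that tested it, but had too few reads for the filter of 10 reads in every embryo.

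**Figure D4:**
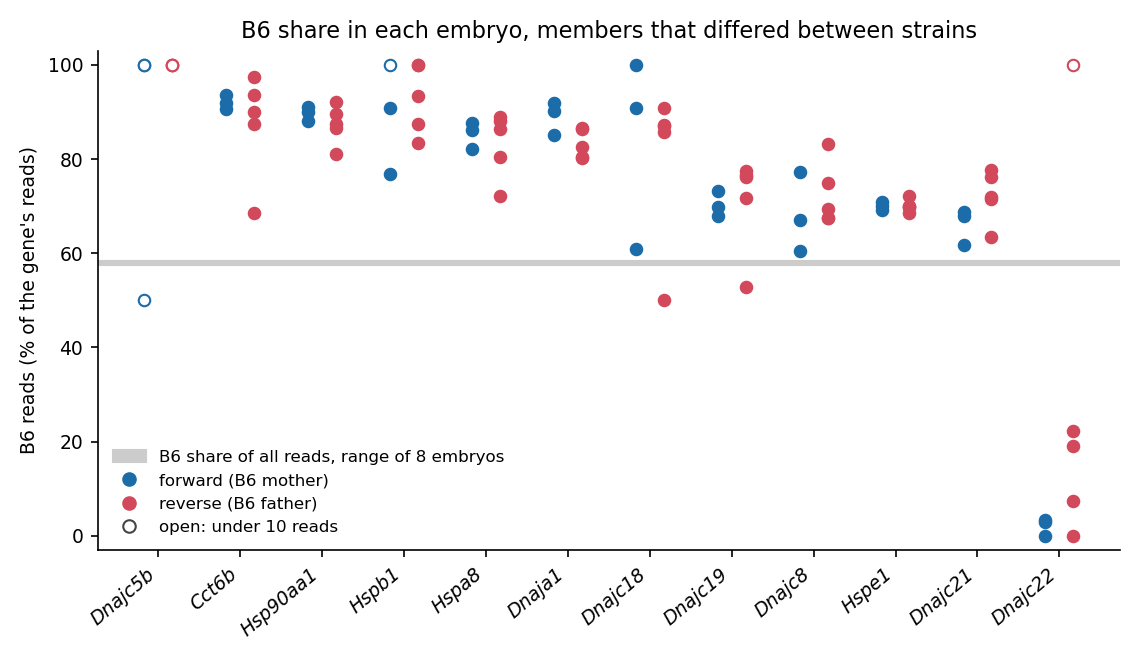
B6 share of SNP-spanning reads (percent) in each embryo for the 12 chaperone genes called between strains, forward embryos in blue and reverse embryos in red, with open points for embryos under 10 reads. The grey band marks the B6 share of all reads, 57.4% to 58.3%. *Hsp90aa1* and *Dnaja1* lie at 80% or more in all embryos and *Dnajc22* lies below it, apart from a single read in reverse embryo 1.

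Counting more B6 than *cast* reads in 8 of 8 embryos gave 15 of 70 chaperone genes (21.4%), against 13.8% of all genes. More *cast* than B6 reads in all 8 was met by 0 of 70, against 1.99% of all genes.

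Several of these genes have near-identical copies elsewhere in the reference genome. Copies annotated as pseudogenes and at least 90% identical over at least 200 bases were found for 8 of the 12 genes called between strains and for 9 of the 58 not called. *Hsp90aa1* had 5, the longest 99.5% identical over 2255 bases, *Dnaja1* had 3 (99.4% over 1194 bases) and *Hspa8* had 12 (94.1% over 1962 bases). *Hspe1* had 4 (92.0% over 312 bases), *Hspb1* 1 (99.4% over 630 bases) and *Dnajc19* 2 (99.1% over 351 bases). *Dnajc8* and *Dnajc5b* had 1 each, while *Cct6b*, *Dnajc21*, *Dnajc22* and *Dnajc18* had none. Copies also occurred without a call, as for *Hspd1* with 6 and *Hsp90ab1* with 4. The authors left out reads with several mapping locations, so the strain shares of genes with copies are uncertain, and the part of the copies was not tested.

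Parental alleles were the comparison for which the crosses were made. No chaperone gene differed between them by edgeR's quasi-likelihood test (0 of 70 at an adjusted p of at most 0.1, where 1.42% of 12565 genes were called). At an unadjusted p of at most 0.05 there were 4 (5.71%, against 7.32% of all genes), namely *Dnajc12*, *Hspa13*, *Hspa14* and *Dnajb6*, all with log2 fold changes towards the maternal allele. DESeq2 called 1 gene (2.02% of all genes), the term for each embryo called 1 (3.1%), and the comparison without reverse embryo 1 called 1 of 69 (1.63%). In each of these it was *Dnajc12*. Without a filter on low counts 1 of 79 was called (1.93% of all genes), and with the embryo term and without reverse embryo 1 it was 3 of 69 (3.7%). The median log2 fold change, paternal over maternal, was 0.02 for the chaperone genes and −0.01 for all genes, with 37 chaperone genes above 0 and 33 below. No chaperone gene had more paternal than maternal reads in all 8 embryos (1.19% of all genes did).

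*Dnajc12* (chr10:63382443-63410576), whose product binds aromatic amino acid hydroxylases, had 4, 8 and 47 B6 reads and no *cast* read in the forward embryos. All 59 reads were thus maternal, which allows a paternal share of up to 5.08% for counting error only. Reverse embryos 1, 2, 3, 5 and 7 held 0, 12, 7, 5 and 15 maternal (*cast*) reads against 11, 12, 4, 5 and 0 paternal (B6) reads. Both parents were seen in reverse embryos 2, 3 and 5, the paternal allele alone in reverse embryo 1 and the maternal allele alone in reverse embryo 7. The log2 fold change was −2.82 ± 0.90 (SE), with an adjusted p of 0.220. The adjusted p was 0.0877 without reverse embryo 1, 0.0895 with a term for each embryo, 0.0438 with DESeq2 and 0.0105 with the embryo term and without reverse embryo 1. The same reads gave a strain log2 fold change of 1.96 towards B6 (adjusted p = 0.186).

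*Hspa13*, an HSP70 with an ATPase domain but no client-binding domain, had 34, 10 and 14 maternal against 1, 4 and 24 paternal reads in the forward embryos. In the reverse embryos it had 3, 28, 37, 22 and 15 maternal against 3, 6, 1, 6 and 7 paternal reads. Maternal reads prevailed in 6 of 8 embryos, with forward embryo 3 the other way and reverse embryo 1 at equal numbers (log2 fold change −1.49 ± 0.58 (SE), adjusted p = 0.418). With the embryo term and without reverse embryo 1 its adjusted p was 0.0615. In forward embryo 1, which gave the most uneven forward reads of *Hspa13*, 1415 of 1416 leukocyte marker reads were maternal. Without that embryo the log2 fold change was −0.98 for *Hspa13*, −3.07 for *Dnajc12* and −0.60 for *Hspa14*, and the part of the leukocyte reads was not tested.

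*Hspa14* had paternal shares of 43.6%, 31.9% and 36.2% in the forward embryos and 51.0%, 40%, 48.1%, 47.1% and 45.8% in the reverse embryos, a small difference (log2 fold change −0.49 ± 0.21 (SE), adjusted p = 0.531). It also passed the test of equivalence given further on (adjusted p = 0.0517). *Dnajb6* had a log2 fold change of −0.71 ± 0.32 (SE), with an adjusted p of 0.601. More maternal than paternal reads in 8 of 8 embryos were found for 2 of 70 genes (2.86%, against 0.597% of all genes). They were *Dnajc15* and *Dnajc24*, named after their values were seen. *Dnajc15*, a J-protein of the mitochondrial inner membrane, had B6 shares of 68.4%, 71.4% and 70.8% in the forward and 48.9%, 34.0%, 40.6%, 45.0% and 35.6% in the reverse embryos (log2 fold change −0.86 ± 0.47 (SE), adjusted p = 0.822). *Dnajc24*, which acts in diphthamide synthesis, had 65.5%, 60.5% and 76.3% (forward) and 48.8%, 48.8%, 48.5%, 42.0% and 40% (reverse) (log2 fold change −0.64 ± 0.37 (SE), adjusted p = 0.885). B6 prevailed where it was maternal and *cast* where *cast* was maternal, but neither difference passed the test.

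Equivalent expression from both parental alleles was tested against a log2 margin of 1, that is a ratio of 2, by 1-sided quasi-likelihood tests at both ends. It was met by 35 of 70 chaperone genes (50%), against 35.6% of all genes. By family, CCT genes passed in 7 of 8 cases, *Cct3* being the exception, HSP90 genes in 2 of 3, HSP70 and HSP110 genes in 5 of 9, DNAJA genes in 2 of 3, DNAJB genes in 3 of 7 and DNAJC genes in 13 of 27. BAG genes passed in 2 of 6 cases and small heat shock protein genes in 0 of 5.

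Number of reads went with these counts. Of the chaperone genes, 24 of 27 with at least 1000 reads passed, 10 of 16 with 300 to 1000, 1 of 21 with 100 to 300 and 0 of 6 with fewer. The shares of all genes in these classes were 84.1%, 54.3%, 7.84% and 0%. Genes that passed had a median of 1192 reads and the others 197.

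*Hspe1* was the clearest case, with a log2 fold change between parents of 0.00 ± 0.22 (SE, adjusted p = 0.0166). *Hspa9*, the mitochondrial HSP70, had 0.08 ± 0.23, *Hsph1* 0.05 ± 0.23, *Cct6a* 0.05 ± 0.24 and *Tcp1* 0.13 ± 0.22, each with an adjusted p of 0.0166. *Hspa5*, the BiP protein of the endoplasmic reticulum, passed with 0.06 ± 0.32 (adjusted p = 0.0305), as did *Hspa4*, an HSP110 relative, with −0.23 ± 0.22 (adjusted p = 0.0192). In these genes the estimated parental difference lay inside the 2-fold margin, but 0 chaperone genes passed at a margin of 1.5-fold.

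*Hsp90ab1* did not pass although it had the most reads, with a log2 fold change of 0.12 ± 0.49 (SE) and an adjusted p of 0.113. Its parental difference was not called under any alternative run. Without reverse embryo 1 its standard error was 0.16 and its adjusted p 0.00169, and with a term for each embryo the adjusted p was 2.67e-12. *Hspa8* likewise had an adjusted p of 0.148, and of 3.60e-06 with the embryo term. Without reverse embryo 1, 43 of 69 genes passed (47.4% of all genes). Leaving out a forward embryo gave 20, 22 and 18 of 70 for forward embryos 1, 2 and 3, while the share of all genes fell to 17.1%, 14.7% and 12.9%.

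Some genes had both strain bias and parental equivalence. Of the 12 genes called between strains, 7 were also equivalent between parents. This was near the share among all tested chaperone genes, 35 of 70 (50%), and 35.6% of all genes were equivalent. Among the genes of most reads, *Hsp90aa1* had a parental log2 fold change of −0.15 ± 0.28 (SE, adjusted p for equivalence 0.0269) beside a strain log2 fold change of 2.67.

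**Figure D5:**
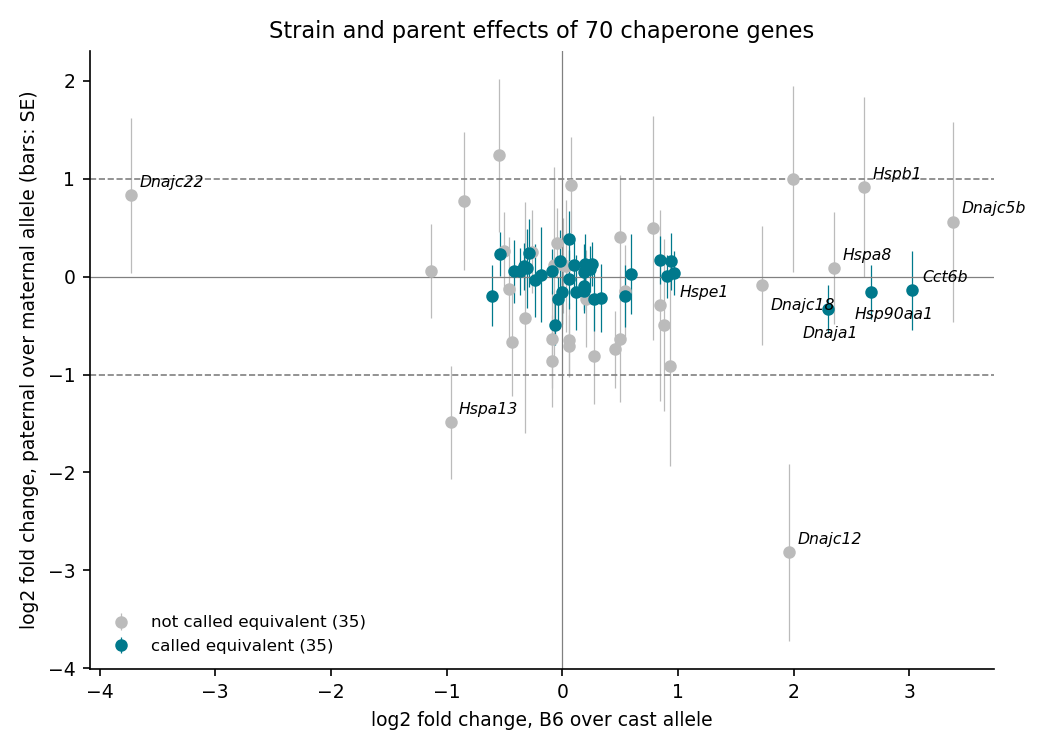
Log2 fold change between parents (paternal over maternal, vertical axis, bars for the standard error) against that between strains (B6 over *cast*, horizontal axis) for 70 chaperone genes, with the 35 equivalent genes in teal, the others in grey and dashed lines at the margin of 1. *Hsp90aa1*, at 2.67 between strains, lies inside the dashed lines, and *Dnajc12* lies at −2.82 between parents.

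Genes that work with these chaperones were examined as lists chosen by function. Between parents 0 of 55 tested were called (1.42% of all genes), and between crosses 0 of 56 (0.0688%). Between strains 10 of 55 were called, where 15.5% of all genes were. They comprised 4 of 19 co-chaperones and heat shock factors (3 towards B6), 2 of 10 prefoldin and tubulin cofactors (both towards B6), 4 of 15 folding genes of the endoplasmic reticulum (2 towards B6) and 0 of 11 mitochondrial folding genes. *Ptges3*, the HSP90 co-chaperone p23, had B6 shares of 87.8%, 94.4% and 92.3% in the forward and 74.4%, 91.2%, 93.4%, 95.5% and 94.96% in the reverse embryos (log2 fold change 2.90 ± 0.35 (SE), adjusted p = 2.82e-06). *Nudc*, an HSP90-linked protein of the cytoskeleton, had a log2 fold change of 2.09 (adjusted p = 0.00184), *Tbcb*, a tubulin cofactor, 1.61 (0.00565), and *Serpinh1*, the collagen chaperone HSP47, 3.39 (2.91e-04), all towards B6. *Creld2* of the endoplasmic reticulum was called towards *cast* with −2.33 (0.0995), a call lost with the term for each embryo. *Xbp1*, a transcription factor of the unfolded protein response added here after its values were seen, was called towards *cast* in both fits (−1.38, adjusted p = 0.0240 without that term). Equivalence between parents was met by 14 of 19, 7 of 10, 5 of 15 and 9 of 11 genes of these lists, where 35.6% of all genes met it.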

How the data were processed

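RNA of single blastocysts was sequenced with SMART-Seq2. The authors aligned reads to mm10 (STAR 2.5.2b and SAMtools 1.9-92 in the submitters' processing notes), dropped reads with several mapping locations, kept reads over annotated SNPs and deposited whole-number counts for each gene, embryo and allele. These are not normalized and come from Allelome.Pro, before its final step. Whether strand was used is not stated. The authors removed further samples beforehand. Members and lists were chosen with earlier results of these data known.

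Symbols were placed with GENCODE M21 (18286), RefSeq (2999) or synonyms (412), and 1113 with 0.816% of reads had no chromosome. Autosomal genes with 10 reads in at least 1 allele library were tested with edgeR 4.0.16 (limma 3.58.1, R 4.3.3), using TMM factors, the terms strain and parent over 16 allele libraries, the quasi-likelihood test and Benjamini-Hochberg adjustment, called at an adjusted p of at most 0.1. Embryo totals were tested for cross. Standard errors are the log2 fold change over the square root of F. DESeq2 1.42.0 was an alternative. Alternatives were other size factors, filters, thresholds, a term for each embryo, and leaving out each embryo. Simulated counts served to test the fits. Copies were found with BLAST 2.17.0+, and figures drawn in Python 3.11.15. Intervals and limits cover counting error only. For the cross comparison, p-values measure the spread between these embryos. In the parent, strain and equivalence fits they measure the spread between the 16 allele libraries, taken as separate units. The pairing of both alleles of an embryo enters only with a term for each embryo.

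Genes named were a list of familiar chaperones, all genes called (or the 3 with the smallest p) and the most-read gene of each family. Alleles of 1 embryo are paired by origin, with deviations that correlated at r = 0.127 to 0.660 over 6182 genes.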

Additional observations from a re-analysis of the deposited data

Results flagged for a closer look

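In the reverse group of 5 embryos, 10 of 70 values (levels and B6 shares) had a highest or lowest embryo far from the nearest other, by Dixon's criterion at 95%. Chance alone marks about 1 in 20 groups. Reverse embryo 1 was the low embryo for *Hsph1* (307 RPM), for *Tcp1* (211) and for the B6 share of *Dnajc19* (52.8%). Reverse embryo 3 was the high embryo for *Cct4* (416 RPM), *Cct6b* (136) and *Dnajc5b* (9.21), and the low embryo for *Dnajc21* (68.7 RPM) and for the B6 share of *Dnajc7* (41.9%), a J-protein that binds both HSP70 and HSP90. Reverse embryo 2 was high for *Bag1* (22.7 RPM), and reverse embryo 7 low for the B6 share of *Dnajc18* (50%).

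The 12 genes called between strains are those in which the parental effect differed between the crosses, by the test of the strain term itself. Their strain log2 fold changes were 2.67 for *Hsp90aa1*, 2.30 for *Dnaja1*, 3.02 for *Cct6b*, 2.35 for *Hspa8*, 0.90 for *Hspe1*, 2.61 for *Hspb1*, 0.97 for *Dnajc19*, 0.85 for *Dnajc21*, 0.94 for *Dnajc8*, 3.38 for *Dnajc5b*, 1.73 for *Dnajc18* and −3.73 for *Dnajc22*.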

How the results depend on the processing

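Chaperone genes called between parents numbered 0, and 1 with DESeq2, without a filter on low counts and with the replicate block of a term for each embryo. Leaving out single embryos gave 0 to 1, and leaving out reverse embryo 1 with the replicate block, chosen after seeing the data, gave 3, *Dnajc12* and *Hspa13* maternal and *Dnajc2* paternal. Between strains, 12 genes became 7 to 12 when single embryos were left out, with 7 without forward embryo 1 or 3, 16 with the replicate block, and 19 with the block and without reverse embryo 1. It was 9 of 48 at a minimum of 10 reads in every embryo, where 1068 of all 7161 genes were called. Of all genes, 15.5% were called between strains in the main fit and 9.9% to 20.6% without single embryos. The block called 25.5% of all genes, and 29.0% without reverse embryo 1. Equivalent genes numbered 35, then 18 to 43 without single embryos and 0 by edgeR at a margin of 1.5-fold (12 at an unadjusted p of at most 0.05). Of all genes, 35.6% were equivalent, and 12.9% to 47.4% without single embryos. At the margin of 1.5-fold it was 0 of all genes (9.05% at an unadjusted p of at most 0.05). In the lists of partner genes, calls between parents rose from 0 to 1 with the block (*Herpud1*). Calls between strains there went from 10 to 17 with the block, 21 with the block and without reverse embryo 1, 6 at an adjusted p of 0.05, and 5 to 14 without single embryos. Equivalent list genes went from 35 to 0 at the margin of 1.5-fold (10 at an unadjusted p of at most 0.05) and 15 to 47 without single embryos. The shares of all genes just given apply to these list counts too, and none is given for an adjusted p of 0.05. The cause of these changes was not tested. Calls between crosses stayed at 0 under every alternative run.

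For the named genes, no called value changed sign under the alternatives. Uncalled values changed sign in 16 cases between parents, 14 between strains and 37 between crosses. Of 523 values in the strain comparison, called or not, 25 lost and 6 gained a call. Of 439 in the equivalence comparison, 34 lost and 31 gained a call, and of 460 in the parent comparison, 6 gained a call. Embryos with the same number in both crosses share only a number (r = 0.222, 0.0193 and 0.202 over 8099 genes), and pairing them as a replicate block left the cross count at 0. Of the 27 chaperone genes under 300 reads, 1 passed the test of equivalence.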
